A study of Arabidopsis thaliana with 9 samples.

Results

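The arabinogalactan proteins (AGPs) and the fasciclin-like arabinogalactan proteins (FLAs) of Arabidopsis thaliana were followed in seedlings of 3 genotypes. The set was given as a list of names, FLA1 to FLA18 and 25 AGPs, and all 43 identifiers were found among the 29420 genes of the count table. Each of hda9-1, a mutant of the histone deacetylase gene HDA9, pwr-2, a mutant of POWERDRESS (PWR), which encodes a SANT domain protein, and wild type (WT) had 3 biological replicates. All plants were of the Col ecotype and were harvested whole as 10-day-old seedlings after growth on MS agar at 23 °C with 16 h of light and 8 h of dark. PolyA RNA was sequenced with a stranded kit that marks a strand with dUTP. The labels do not state the molecular nature of the mutant alleles.

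AGPs are proteoglycans of the plant cell surface and wall. Their backbones are rich in proline, alanine, serine and threonine, the prolines are hydroxylated, and the hydroxyprolines carry large branched arabinogalactan chains. Many of them, and many FLAs, reach the outer face of the plasma membrane on a glycosylphosphatidylinositol (GPI) anchor. FLAs add fasciclin domains, which are known for roles in adhesion, to short AGP-type stretches. AG peptides are very short AGPs, lysine-rich AGPs carry a basic stretch, and AGP30 and AGP31 join an AGP-type region to a PAC domain.

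The codon composition of the set follows that division. In the RefSeq annotation of TAIR10.1, proline, alanine, serine and threonine codons made up a median of 53.7% of the 25 AGP coding sequences (34.3% to 72.6%) and of 35.3% of the 18 FLA coding sequences (25.8% to 43.1%). Over 26710 coding genes of the table the median was 24.9%, with 18.3% at the 5th percentile and 33.6% at the 95th. AGP7 is a classical AGP of 130 codons, of which 66.9% code for these 4 amino acids, and AGP12 is an AG peptide of 60 codons, of which 43.3% do. Both are printed because AGP7 had the largest rise of the set and AGP12 shows how little backbone an AG peptide has. The AGP7 stretch is codons 24 to 83 on the minus strand of chr5:26129027-26129206, and AGP12 is the whole coding sequence with its stop codon on the plus strand of chr3:4409087-4409269 (TAIR10.1, RefSeq), with proline codons in capitals, 24 in the AGP7 stretch and 4 in AGP12.
AGP7: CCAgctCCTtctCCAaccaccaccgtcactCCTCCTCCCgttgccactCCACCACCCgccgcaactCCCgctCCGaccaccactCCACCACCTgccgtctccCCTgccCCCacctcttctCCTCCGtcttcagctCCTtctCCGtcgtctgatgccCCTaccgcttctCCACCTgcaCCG
AGP12: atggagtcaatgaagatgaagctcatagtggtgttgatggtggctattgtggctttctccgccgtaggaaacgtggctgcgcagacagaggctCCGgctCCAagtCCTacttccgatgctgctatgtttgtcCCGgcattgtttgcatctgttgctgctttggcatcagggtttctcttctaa

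Upstream sequences are shown for the 2 genes with the largest rises in hda9-1, AGP7 and FLA9, and for FLA10, which fell in both mutants. Each is the 250 bases before the annotated gene start on the minus strand, at chr5:26129548-26129797 for AGP7, chr1:983545-983794 for FLA9 and chr3:22501240-22501489 for FLA10 (TAIR10.1, RefSeq). The capitals in FLA10 mark overlapping matches on the 2 strands to TATAAA, the core of a TATA box. The windows of AGP7 and FLA9 hold no such match.
AGP7: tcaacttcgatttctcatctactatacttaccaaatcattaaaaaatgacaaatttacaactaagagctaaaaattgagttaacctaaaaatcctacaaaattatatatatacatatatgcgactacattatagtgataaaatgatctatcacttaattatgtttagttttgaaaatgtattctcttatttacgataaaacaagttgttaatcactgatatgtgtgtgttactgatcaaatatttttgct
FLA9: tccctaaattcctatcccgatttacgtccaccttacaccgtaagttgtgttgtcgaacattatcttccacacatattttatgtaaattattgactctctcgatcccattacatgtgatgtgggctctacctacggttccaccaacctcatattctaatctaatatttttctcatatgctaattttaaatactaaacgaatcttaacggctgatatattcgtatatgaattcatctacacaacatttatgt
FLA10: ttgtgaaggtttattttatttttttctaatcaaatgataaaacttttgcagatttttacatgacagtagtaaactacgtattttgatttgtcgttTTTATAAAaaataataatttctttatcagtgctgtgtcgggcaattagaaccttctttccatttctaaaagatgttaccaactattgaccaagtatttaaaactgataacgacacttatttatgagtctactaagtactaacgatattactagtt

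Short motifs were searched on both strands in these windows. TATAAA was found before 20 of the 43 genes (46.5%), against 47.6% of 28931 windows of the table's genes. TGTCTC, an auxin response element, was found before 5 of 43 (11.6%, namely FLA1, FLA3, FLA11, AGP21 and AGP22), against 10.9% of all windows. CACGTG, the G-box, was found before AGP2 only (2.33%), against 6.34% of all windows. These are matches of letters in a window, not binding sites.

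The libraries held 6450661 to 11150773 counts, of which the 43 genes took 0.194% to 0.203% in hda9-1, 0.186% to 0.193% in pwr-2 and 0.156% to 0.161% in WT. Levels are given as CPM, in which a count is divided by the library total times its TMM factor (trimmed mean of M-values) to make libraries comparable. Gene positions are those of TAIR10.1. A gene is called higher or lower at an adjusted p under 0.05 in edgeR's quasi-likelihood test, with Benjamini-Hochberg adjustment over the 20171 genes tested, and all adjusted p-values below are of that test unless another tool is named. HDA9 stood at 7.04 ± 0.435 CPM in hda9-1, 32.6 ± 2.68 in pwr-2 and 38.04 ± 1.42 in WT, and PWR at 191 ± 5.52 CPM in hda9-1, 48.7 ± 7.41 in pwr-2 and 141 ± 6.83 in WT (SD, n = 3 each). Both targeted genes were therefore lowest in the mutant named for them. Replicate 3 of hda9-1 was the smallest library and was the highest of the 3 hda9-1 libraries for 24 of the 34 tested members, so counts are also given without it. Within their own groups, WT replicate 3 was highest for 19 members and pwr-2 replicate 1 for 14. These ranks were not taken over all genes.

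More of the tested members were called higher than lower in both mutants. Of the 43 genes, 34 passed the filter on low counts. In hda9-1 against WT, 20 were called higher (all genes tested: 17.6%), 2 were called lower (all genes tested: 16.6%) and 12 were not called. In pwr-2 against WT, 23 were called higher (all genes tested: 16%), 2 were called lower (all genes tested: 15.3%) and 9 were not called. The median log2 fold change over the 34 was 0.31 in hda9-1 and 0.29 in pwr-2, beside 0.00 in hda9-1 and -0.01 in pwr-2 over all genes tested. Without replicate 3 of hda9-1, 18 members were called higher in hda9-1 and 24 in pwr-2, with 2 lower in each. Over all genes, 6085 were then called in hda9-1 and 7581 in pwr-2, against 6897 and 6326 with all libraries. Of these calls, 52.6% were higher in hda9-1 and 52.5% in pwr-2, against 51.6% and 51.1% with all libraries. With upper-quartile factors in place of TMM, 7192 and 6755 genes were called, of which 32.9% and 32.6% were higher. Members called higher were then 17 in hda9-1 and 19 in pwr-2, with 2 lower in each. These percentages are shares of calls, not of genes tested.

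The comparisons of hda9-1 and of pwr-2 share their WT libraries, so their calls are not independent of each other. In both comparisons 18 members were called higher (all genes tested: 12.4%), which were FLA2, FLA8, FLA9, FLA13, FLA17, FLA18, AGP1, AGP4, AGP7, AGP9, AGP10, AGP12, AGP15, AGP16, AGP17, AGP18, AGP20 and AGP31. FLA10 and AGP5 were called lower in both (all genes tested: 10.5%). AGP21 and AGP26 were called in hda9-1 and missed the threshold in pwr-2, and FLA4, FLA11, FLA12, FLA15 and FLA16 were called in pwr-2 and missed it in hda9-1. FLA1, FLA7, AGP2, AGP6, AGP14, AGP19 and AGP24 were called in neither. Between the mutants and WT, all 3 libraries of hda9-1 lay above all 3 of WT for 23 of the 34 members (all genes tested: 23.4%) and below for 2 (all genes tested: 23%), and those of pwr-2 lay above for 24 (all genes tested: 25.6%) and below for 2 (all genes tested: 24.7%).

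**Figure D1:**
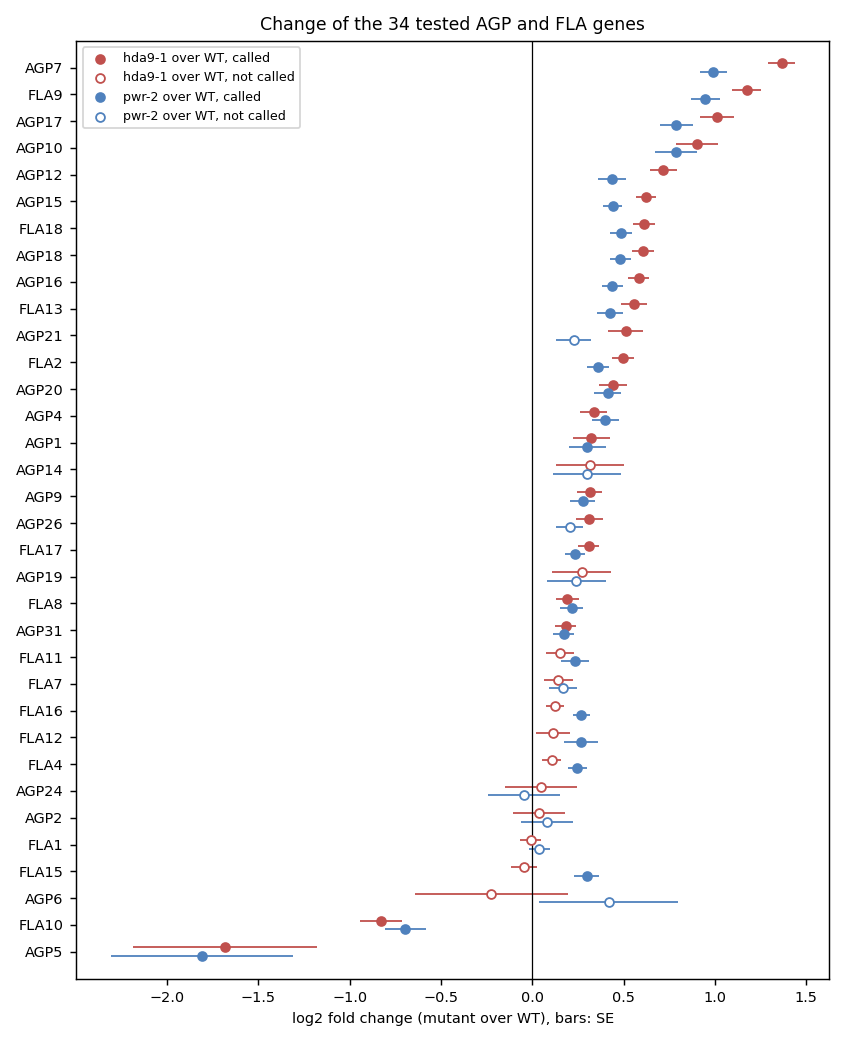
Log2 fold change of each of the 34 tested genes in hda9-1 over WT (red) and pwr-2 over WT (blue), with bars of 1 SE and filled points for genes called at an adjusted p under 0.05. The genes run down the page by their change in hda9-1, and the called changes lie right of 0 except for FLA10 and AGP5.

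AGP7 (AT5G65390), a classical AGP, changed most among the genes that rose. It had 39.6, 40.0 and 44.6 CPM in hda9-1 and 29.8, 32.1 and 33.5 CPM in pwr-2, against 16.2, 15.7 and 16.2 CPM in WT. The 3 groups did not overlap, with hda9-1 highest. The fold change was 2.57 in hda9-1 (log2 1.36, SE 0.07, adjusted p = 5.33e-07) and 1.99 in pwr-2 (log2 0.99, SE 0.08, adjusted p = 7.08e-06). Its gene lies on the minus strand of chromosome 5 at 26128581 to 26129547 and is a single exon.

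AGP10 (AT4G09030, chromosome 4, 5792137 to 5792966, plus strand), another classical AGP, had 30.6, 32.0 and 37.0 CPM in hda9-1 and 32.3, 30.2 and 29.0 CPM in pwr-2, against 16.3, 15.7 and 21.5 CPM in WT. All mutant libraries lay above all WT libraries, and the mutants overlapped. The fold change was 1.87 in hda9-1 (log2 0.90, SE 0.11, adjusted p = 0.000149) and 1.72 in pwr-2 (log2 0.79, SE 0.11, adjusted p = 0.000536). Of its exon bases, 39.4% are shared with a gene on the other strand that was not in the table used here.

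Of the 3 lysine-rich AGPs, AGP17 and AGP18 rose in both mutants. AGP17 (AT2G23130, chromosome 2, 9844134 to 9845385, plus strand), whose loss in the rat1 mutant lowers binding of Agrobacterium to roots, had 46.3, 47.9 and 58.4 CPM in hda9-1 and 44.6, 40.6 and 44.6 CPM in pwr-2, against 26.8, 23.1 and 25.3 CPM in WT. Its fold change was 2.01 in hda9-1 (log2 1.01, SE 0.09, adjusted p = 1.33e-05) and 1.73 in pwr-2 (log2 0.79, SE 0.09, adjusted p = 0.000121). The mutant libraries all lay well above those of WT. AGP18 (AT4G37450, chromosome 4, 17605538 to 17607050, minus strand), which acts in the selection of the functional megaspore, had 62.2, 57.6 and 66.4 CPM in hda9-1 and 54.7, 57.5 and 57.8 CPM in pwr-2, against 40.2, 40.9 and 40.7 CPM in WT. Relative to WT it was 1.52-fold in hda9-1 (adjusted p = 2.23e-05) and 1.40 in pwr-2 (adjusted p = 0.000171). The WT libraries of AGP18 differed by less than 1 CPM, and no mutant library came down to them. AGP19, known for roles in growth, was at 7.96 ± 1.48 CPM in hda9-1, 7.83 ± 0.577 in pwr-2 and 6.63 ± 0.445 in WT (SD, n = 3 each), with log2 fold changes of 0.27 in hda9-1 (SE 0.16, adjusted p = 0.218) and 0.24 in pwr-2 (SE 0.16, adjusted p = 0.27).

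Among the 7 tested AG peptides, 5 were called higher in hda9-1 (all genes tested: 17.6%) and 4 in pwr-2 (all genes tested: 16%). None was called lower (all genes tested: 16.6% in hda9-1 and 15.3% in pwr-2). AGP15 (AT5G11740, chromosome 5, 3783930 to 3784963, plus strand) had 90.5, 94.0 and 95.9 CPM in hda9-1 and 78.5, 84.6 and 83.3 CPM in pwr-2, against 63.6, 59.5 and 58.7 CPM in WT. Its fold change was 1.54 in hda9-1 (log2 0.62, SE 0.05, adjusted p = 9.35e-06) and 1.36 in pwr-2 (log2 0.44, SE 0.05, adjusted p = 0.000159). The groups did not overlap, with hda9-1 highest and WT lowest. AGP16 (AT2G46330, chromosome 2, 19018264 to 19019364, minus strand) had 81.3, 83.0 and 87.9 CPM in hda9-1 and 71.4, 77.7 and 78.4 CPM in pwr-2, against 55.0, 54.7 and 58.6 CPM in WT. The ratio to WT was 1.496 in hda9-1 (adjusted p = 2.1e-05) and 1.35 in pwr-2 (adjusted p = 0.000226). AGP16 had the same order as AGP15, again with no overlap. AGP12 (AT3G13520, chromosome 3, 4408925 to 4409734, plus strand), printed above, had 44.9, 43.1 and 50.6 CPM in hda9-1 and 35.0, 39.0 and 39.4 CPM in pwr-2, against 27.8, 27.0 and 29.3 CPM in WT. Its fold change was 1.64 in hda9-1 (log2 0.72, SE 0.07, adjusted p = 3.63e-05) and 1.35 in pwr-2 (log2 0.44, SE 0.08, adjusted p = 0.00154). Here too each genotype's libraries lay apart from those of the others. In pwr-2 against hda9-1, however, AGP15, AGP16 and AGP12 were not called (adjusted p = 0.152, 0.284 and 0.122).

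AGP20, AGP21, AGP14 and AGP24 are the other tested AG peptides. AGP20 rose on the log2 scale by 0.44 in hda9-1 (SE 0.08, adjusted p = 0.00111) and 0.41 in pwr-2 (SE 0.08, adjusted p = 0.00208). AGP21, which is known to act on root hair cell fate, rose by 0.51 in hda9-1 (SE 0.09, adjusted p = 0.00178), while in pwr-2 its log2 value was 0.23 (SE 0.10, adjusted p = 0.0927), where the libraries spread between 40.7 and 54.1 CPM. Without replicate 1 of pwr-2 AGP21 was also called there, with an adjusted p of 0.0171. AGP14, known for a role in root hair length, and AGP24 had low levels, between 3.11 and 6.03 CPM in every library, and their log2 fold changes lay between -0.05 and 0.32 with adjusted p-values of 0.21 to 0.877.

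**Figure D2:**
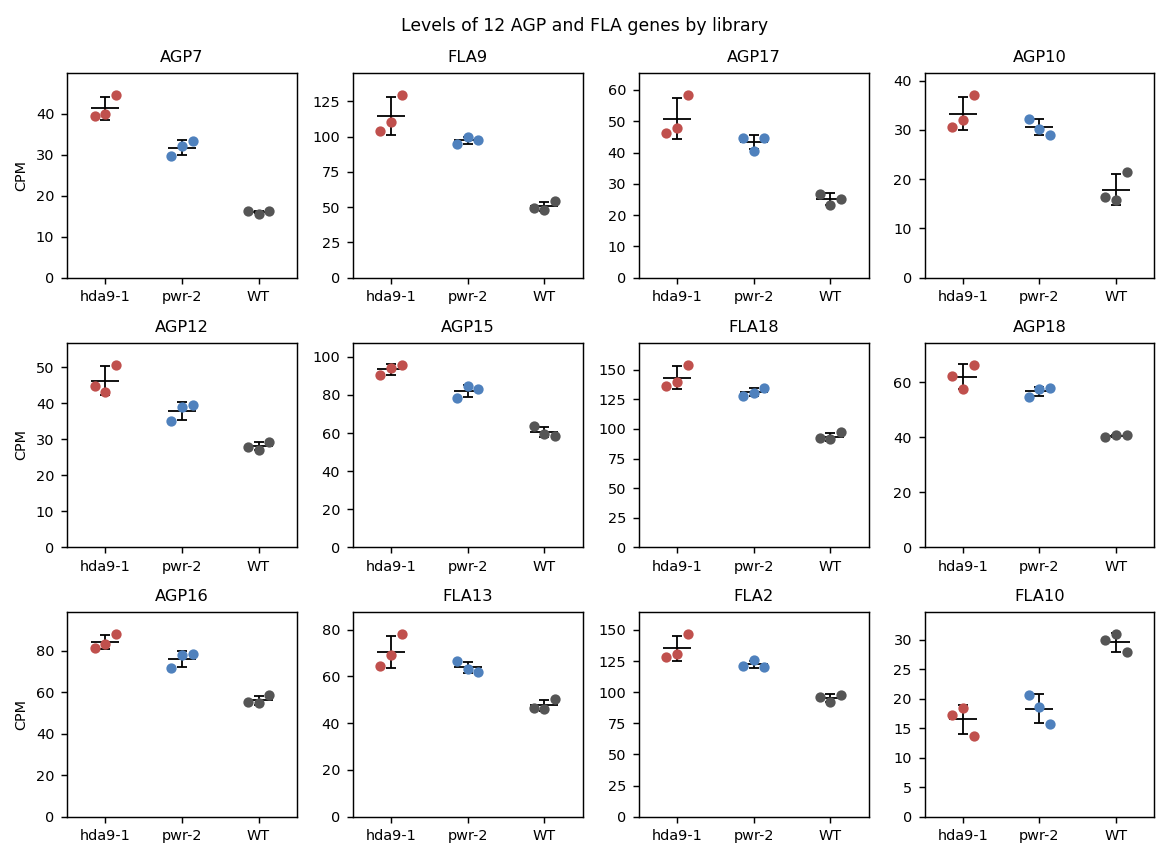
CPM of the 12 members with the smallest adjusted p in either mutant, by library (points) with the mean and SD of 3 replicates (black), for hda9-1, pwr-2 and WT; each axis starts at 0. In every panel the 6 mutant libraries lie on the same side of the 3 WT libraries, above them for 11 genes and below them for FLA10.

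FLAs of the short group A, with FLA6, FLA7, FLA9, FLA11, FLA12 and FLA13, gave the largest FLA rise. FLA9 (AT1G03870, chromosome 1, 982381 to 983544, minus strand) had 104, 110 and 129 CPM in hda9-1 and 94.5, 99.97 and 97.6 CPM in pwr-2, against 49.7, 48.2 and 54.1 CPM in WT. The change from WT was 2.25-fold in hda9-1 (log2 1.17, SE 0.08, adjusted p = 1.81e-06) and 1.93 in pwr-2 (log2 0.95, SE 0.08, adjusted p = 1.24e-05). No mutant library came near the WT range. FLA13 (AT5G44130, chromosome 5, 17760865 to 17762089, plus strand) had 64.2, 68.9 and 78.0 CPM in hda9-1 and 66.6, 63.2 and 61.8 CPM in pwr-2, against 46.5, 46.1 and 50.2 CPM in WT. Its fold change was 1.47 in hda9-1 (adjusted p = 0.000147) and 1.34 in pwr-2 (adjusted p = 0.00119). The mutants overlapped each other and lay above WT. FLA7 was at 59.3 ± 6.48 CPM in hda9-1, 59.9 ± 3.15 in pwr-2 and 53.5 ± 3.69 in WT (SD, n = 3 each), with adjusted p-values of 0.19 for hda9-1 and 0.121 for pwr-2. With the replicate number as a block in a fit of hda9-1 and WT alone, FLA7 was called higher in hda9-1 (log2 0.14, adjusted p = 0.0308).

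FLA11 and FLA12, which are known from the secondary walls of stems, had smaller differences. FLA11 was at 33.2 ± 1.61 CPM in hda9-1, 35.2 ± 3.35 in pwr-2 and 29.8 ± 1.39 in WT, and FLA12 at 20.9 ± 2.30 in hda9-1, 23.4 ± 0.863 in pwr-2 and 19.4 ± 1.17 in WT (SD, n = 3 each). In pwr-2 both were called higher, FLA11 by 0.23 (SE 0.08, adjusted p = 0.0356) and FLA12 by 0.27 (SE 0.09, adjusted p = 0.0435) on the log2 scale. In hda9-1 the log2 fold change was 0.15 for FLA11 (SE 0.08, adjusted p = 0.154) and 0.11 for FLA12 (SE 0.09, adjusted p = 0.379). Of 13 markers of xylem secondary walls, 2 were called higher in hda9-1 (all genes tested: 17.6%) and 6 in pwr-2 (all genes tested: 16%), none was called lower and none was at 0 in any library. Their summed level was 378 to 516 CPM in hda9-1, 468 to 519 in pwr-2 and 330 to 426 in WT, and the part of these cells in the levels of FLA11 and FLA12 was not tested. In whole seedlings, more cells of a type and more RNA per cell cannot be told apart. Of 5 leaf photosynthesis markers, none was called in hda9-1 (all genes tested: 34.2%). In pwr-2, 1 was called, higher (all genes tested: 31.4% in either direction). In replicates 1, 2 and 3 their summed level was 2017, 2055 and 2393 CPM in hda9-1 and 2213, 2182 and 2118 in pwr-2. In WT it was 2009, 1980 and 2008 CPM. The part of leaf cells in the members' levels was not tested.

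The 4 FLAs of group B, which carry a pair of fasciclin domains, were all called higher in pwr-2 (all genes tested: 16%) and 2 of them in hda9-1 (all genes tested: 17.6%). FLA18 (AT3G11700, chromosome 3, 3698658 to 3701514, plus strand) had 136, 140 and 154 CPM in hda9-1 and 128, 131 and 134 CPM in pwr-2, against 92.1, 91.1 and 97.5 CPM in WT. Relative to WT it was 1.53-fold in hda9-1 (log2 0.61, SE 0.06, adjusted p = 2.25e-05) and 1.40 in pwr-2 (log2 0.49, SE 0.06, adjusted p = 0.000171). The 3 groups did not overlap, but pwr-2 against hda9-1 was not called (adjusted p = 0.384). FLA17 rose on the log2 scale by 0.31 in hda9-1 (SE 0.06, adjusted p = 0.0015) and 0.23 in pwr-2 (SE 0.06, adjusted p = 0.00882).

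FLA15 and FLA16 had their higher level in pwr-2. FLA15 (AT3G52370, chromosome 3, 19417372 to 19419913, plus strand) had 24.1, 25.4 and 26.4 CPM in hda9-1 and 32.9, 31.4 and 31.6 CPM in pwr-2, against 24.4, 26.7 and 26.9 CPM in WT. The pwr-2 libraries stood above both other groups, which overlapped. Its log2 fold change was -0.04 in hda9-1 (SE 0.07, adjusted p = 0.658) and 0.30 in pwr-2 (SE 0.07, adjusted p = 0.00684). The difference itself, pwr-2 against hda9-1, was 0.34 on the log2 scale, with an adjusted p of 0.0565, so it missed the threshold. Without the filter on low counts that adjusted p was 0.0495. FLA16 rose by 0.27 in pwr-2 (SE 0.05, adjusted p = 0.00164), and its log2 fold change in hda9-1 was 0.13 (SE 0.05, adjusted p = 0.0615), or an adjusted p of 0.0324 with the replicate block in a fit of hda9-1 and WT alone. Between the mutants FLA16 differed by 0.14 (SE 0.05, adjusted p = 0.212). FLA16 shares 76.6% of its exon bases with a gene on the other strand that itself had 4790 counts over the 9 libraries, against 5771 for FLA16.

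Group C held both directions. FLA2 (AT4G12730, chromosome 4, 7491227 to 7493080, minus strand) had 128, 130 and 147 CPM in hda9-1 and 121, 126 and 120 CPM in pwr-2, against 96.5, 92.1 and 97.8 CPM in WT. Its fold change was 1.41 in hda9-1 (log2 0.50, SE 0.06, adjusted p = 0.000105) and 1.28 in pwr-2 (log2 0.36, SE 0.06, adjusted p = 0.00122). FLA2 lay above WT in all 6 mutant libraries. FLA10 (AT3G60900, chromosome 3, 22499292 to 22501239, minus strand) had 17.3, 18.4 and 13.8 CPM in hda9-1 and 20.7, 18.6 and 15.7 CPM in pwr-2, against 29.9, 31.0 and 27.9 CPM in WT. The ratio to WT was 0.563 in hda9-1 (log2 -0.83, SE 0.12, adjusted p = 0.000282) and 0.617 in pwr-2 (log2 -0.70, SE 0.11, adjusted p = 0.00105). FLA10 was the only called FLA that fell, and every mutant library lay below every WT library.

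FLA8 (AT2G45470), the group C member most highly expressed per exon length, had 202, 204 and 228 CPM in hda9-1 and 220, 216 and 207 CPM in pwr-2, against 188, 181 and 185 CPM in WT. Its log2 fold change was 0.19 in hda9-1 (SE 0.06, adjusted p = 0.0344) and 0.22 in pwr-2 (SE 0.06, adjusted p = 0.0214). About 0.2% of the 50-base words in the exons of FLA8 and of FLA10 are repeated in the genome. FLA1, known for a role in shoot regeneration, was at 83.3 ± 1.11 CPM in hda9-1, 86.1 ± 3.39 in pwr-2 and 84.0 ± 5.39 in WT (SD, n = 3 each), with log2 fold changes of -0.01 in hda9-1 (SE 0.06, adjusted p = 0.909) and 0.04 in pwr-2 (SE 0.06, adjusted p = 0.629). FLA4 (AT3G46550), also called SOS5, is needed for normal root cell expansion and is the FLA of group D. It rose by 0.25 in pwr-2 (SE 0.05, adjusted p = 0.00479), and its log2 fold change in hda9-1 was 0.11 (SE 0.05, adjusted p = 0.146). The difference between the mutants was 0.14 (SE 0.05, adjusted p = 0.27).

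AGP5 (AT1G35230, chromosome 1, 12917070 to 12917829, plus strand) had the largest fold change of the set, downward, on few counts. It had 13, 2 and 16 counts in hda9-1 and 9, 9 and 13 counts in pwr-2, against 40, 34 and 51 counts in WT. No mutant library reached the WT range. On the log2 scale the change was -1.68 in hda9-1 (SE 0.50, adjusted p = 0.0228) and -1.81 in pwr-2 (SE 0.50, adjusted p = 0.0177). The hda9-1 call was lost without WT replicate 3 (adjusted p = 0.0739) and without hda9-1 replicate 2 (0.0586), and without hda9-1 replicate 3 the log2 fold change was -2.35. The pwr-2 call was lost without WT replicate 3 (0.0567), pwr-2 replicate 1 (0.0585) and pwr-2 replicate 2 (0.0726). With loess offsets, which remove a trend of the fold change with the level, the adjusted p was 0.0742 in hda9-1 and 0.0551 in pwr-2.

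The remaining classical and chimeric AGPs moved by less. AGP4, also called JAGGER, which acts in the degeneration of the persistent synergid, rose on the log2 scale by 0.34 in hda9-1 (SE 0.07, adjusted p = 0.0053) and 0.40 in pwr-2 (SE 0.07, adjusted p = 0.0022). AGP9 rose by 0.31 in hda9-1 (SE 0.07, adjusted p = 0.00504) and 0.28 in pwr-2 (SE 0.07, adjusted p = 0.0111). AGP26 rose by 0.31 in hda9-1 (SE 0.07, adjusted p = 0.00681), and in pwr-2 the change of 0.20 (SE 0.07) had an adjusted p of 0.052, just outside the threshold. Without WT replicate 1, hda9-1 replicate 3 or pwr-2 replicate 3 AGP26 was called in pwr-2, with adjusted p-values of 0.0462, 0.0442 and 0.0402. AGP1 rose by 0.32 in hda9-1 (SE 0.10, adjusted p = 0.0288) and 0.30 in pwr-2 (SE 0.10, adjusted p = 0.0403). AGP31, found in vascular tissue and able to bind pectin, rose by 0.18 in hda9-1 (SE 0.06, adjusted p = 0.0281) and 0.17 in pwr-2 (SE 0.06, adjusted p = 0.0391). AGP2 was at 10.6 ± 1.47 CPM in hda9-1, 11.0 ± 1.56 in pwr-2 and 10.4 ± 0.706 in WT (SD, n = 3 each), with adjusted p-values of 0.864 for hda9-1 and 0.692 for pwr-2.

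Several of the small rises depended on single libraries and on the processing. In hda9-1, the call of FLA8 was lost without WT replicate 1 (adjusted p = 0.0624), WT replicate 2 (0.104), WT replicate 3 (0.0553) or pwr-2 replicate 2 (0.0524). That of AGP1 was lost without WT replicate 1 (0.102), WT replicate 2 (0.11) or hda9-1 replicate 3 (0.0895), and that of AGP31 without WT replicate 2 (0.0714), WT replicate 3 (0.0846) or hda9-1 replicate 3 (0.0535). In pwr-2, the call of FLA8 was lost without WT replicate 2 (0.0626), pwr-2 replicate 1 (0.0718) or pwr-2 replicate 2 (0.0699). That of AGP1 was lost without WT replicate 1 (0.13), WT replicate 2 (0.135), pwr-2 replicate 1 (0.128) or pwr-2 replicate 2 (0.109). That of AGP31 was lost without WT replicate 2 (0.0834), WT replicate 3 (0.097), pwr-2 replicate 1 (0.0748) or pwr-2 replicate 2 (0.134). That of FLA11 was lost without WT replicate 1 (0.0894), WT replicate 3 (0.0841), pwr-2 replicate 1 (0.138) or pwr-2 replicate 2 (0.0693). That of FLA12 was lost without WT replicate 1 (0.097), WT replicate 2 (0.0729), WT replicate 3 (0.118), pwr-2 replicate 1 (0.126), pwr-2 replicate 2 (0.0889) or pwr-2 replicate 3 (0.0798).

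DESeq2 did not call FLA11 (adjusted p = 0.119), FLA12 (0.142), AGP1 (0.0747) or AGP31 (0.0522) in pwr-2. With upper-quartile factors, edgeR did not call FLA8 (0.0983), AGP1 (0.0639) or AGP31 (0.145) in hda9-1, nor FLA11 (0.119), FLA12 (0.143), AGP1 (0.081) or AGP31 (0.162) in pwr-2. In a fit of only hda9-1 and WT, FLA8 (0.0774), AGP1 (0.0507) and AGP31 (0.0577) missed the threshold, and without the low-count filter FLA12 did in pwr-2 (0.0501). With RLE factors AGP26 was called in pwr-2 (0.0492).

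Levels per exon length place the members on a common scale. In WT, FLA8 had the highest mean, 100.1 CPM per kb of exon, followed by AGP21 at 96.0, AGP31 at 69.0, AGP15 at 58.6 and AGP26 at 52.5. In hda9-1 the order of these began with AGP21 at 138 ± 7.3 CPM per kb and FLA8 at 114 ± 8.0, and in pwr-2 AGP21 stood at 113 ± 16 and FLA8 at 116 ± 3.5 (SD, n = 3 each). AGP21 and FLA8 did not differ beyond their spread in pwr-2 or in WT, where AGP21 had an SD of 8.7. AGP21, AGP26, AGP19, AGP4 and FLA16 share 41.6% to 85.2% of their exon bases with a gene on the other strand. AGP10 shares 39.4%, AGP16 20.7% and FLA11 6.17%, and the partners of AGP16 and FLA11 had 2628 and 4505 counts over the 9 libraries. The strand setting of the counting is not given in the sources used here. Reads of the partner could therefore be in the values of all these members, which was not tested. FLA14 and FLA3, which share 100% and 96.5% of their exon bases, had 2 and 13 counts over the 9 libraries. Their partners had 6851 and 960.

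**Figure D3:**
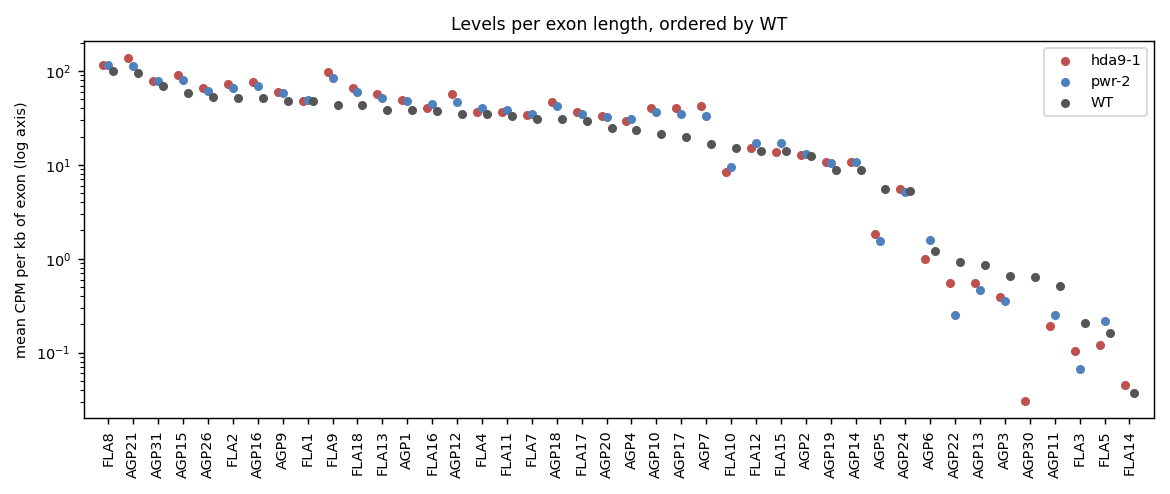
Mean CPM per kb of exon (log axis) in hda9-1, pwr-2 and WT for the members with a count in WT, ordered by WT; a mean of 0 is not drawn. Most members lie between 10 and 100 CPM per kb, and the right end falls below 1 CPM per kb.

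Low and high members did not divide alike. With the 20171 tested genes in 5 classes of equal size by mean level, the members fell into classes 1 to 5, low to high, as 5, 4, 9, 8 and 8. In hda9-1, 0, 1, 7, 5 and 7 of these were called higher, while of all genes 6.15%, 7.98%, 14.7%, 25.8% and 33.5% were. In pwr-2, 0, 2, 8, 6 and 7 were called higher, while of all genes 6.72%, 8.18%, 12.1%, 21.4% and 31.7% were. The share of genes called higher thus went up with the level in the whole table, and the median change of all genes on the log2 scale went from -0.27 in class 1 to 0.12 in class 5 in hda9-1. With loess offsets, the median of the members was 0.33 in hda9-1 and 0.34 in pwr-2, but the calls of FLA8 (adjusted p = 0.65 in hda9-1 and 0.399 in pwr-2) and AGP31 (0.423 in hda9-1 and 0.527 in pwr-2) were lost. The same offsets added calls of AGP14 (log2 0.58, adjusted p = 0.0439) and AGP19 (log2 0.51, adjusted p = 0.0379) in hda9-1 and of AGP26 (log2 0.22, adjusted p = 0.042) in pwr-2.

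**Figure D4:**
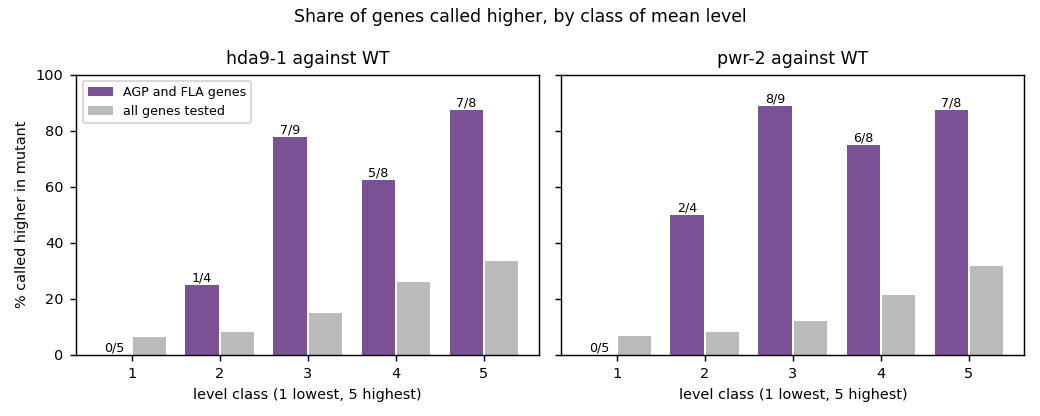
Percent of genes called higher in hda9-1 and in pwr-2 against WT, for AGP and FLA genes (purple, with counts above the bars) and all genes tested (grey), by class of mean level. The members' bars stand above the grey bars in classes 2 to 5 and at 0 in class 1.

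The mutants differed little from each other. In pwr-2 against hda9-1, AGP7 alone was called, lower in pwr-2, by a log2 difference of -0.37 (SE 0.07, adjusted p = 0.0464), and 33 members were not called. Of all genes tested, 0.109% were called lower, 0.312% higher and 0.421% in either direction. At an unadjusted p under 0.05 there were 11 members of 34 (all genes tested: 13.5%). The AGP7 call was lost without WT replicate 1 (0.0544) or 2 (0.0785), hda9-1 replicate 1 (0.0947), 2 (0.121) or 3 (0.103), and pwr-2 replicate 1 (0.211) or 2 (0.175), and DESeq2 gave 0.0769. The pwr-2 libraries lay wholly below those of hda9-1 for 9 members (all genes tested: 8.7%) and wholly above for 3 (all genes tested: 9.16%). The median log2 fold change of the 34 was -0.03, and 0.01 without replicate 3 of hda9-1. A p that misses the threshold does not show that the mutants are alike in a gene: the SE of these differences was 0.07 at the median and up to 0.61.

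Of the 43 genes, 9 did not pass the filter on low counts. FLA6 had no count in any library, where 3 counts would be 0.259 to 0.492 CPM. FLA3, FLA5 and FLA14 had at most 5 counts in a library, and AGP11 and AGP13 at most 6. FLA3 and FLA14 are known from pollen, as are AGP6 and AGP11. AGP6 was tested, at 1.02 ± 0.392 CPM in hda9-1, 1.65 ± 0.364 in pwr-2 and 1.26 ± 0.553 in WT (SD, n = 3 each), with adjusted p-values of 0.71 for hda9-1 and 0.42 for pwr-2. Of 12 pollen markers, PPME1, ANX2 and MGH3 had no count in any library. TUA1, LRX8, ANX1 and LRX9 stood at 50.5, 26.3, 21.9 and 20.1 CPM in WT, so the list is not silent in these seedlings. Of the 12, 5 were tested and none was called in either mutant (all genes tested: 34.2% in hda9-1 and 31.4% in pwr-2). FLA3 and FLA14 share 96.5% and 100% of their exon bases with a gene on the other strand.

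AGP30 had its few counts almost only in WT, and AGP3 and AGP22 had their highest counts in WT replicates 1 and 2. AGP30 (AT2G33790), which acts in root regeneration and the timing of germination, had 1, 0 and 0 counts in hda9-1 and 0, 0 and 0 in pwr-2, against 13, 11 and 0 in WT. AGP3 had 6, 2 and 1 counts in hda9-1 and 2, 2 and 4 in pwr-2, against 7, 12 and 0 in WT. AGP22 had 8, 2 and 1 counts in hda9-1 and 1, 2 and 2 in pwr-2, against 9, 10 and 3 in WT. In each of these genes WT replicate 3 was at or near the mutants, and in AGP3 and AGP22 hda9-1 replicate 1 was near WT replicate 1. Without the filter, AGP30 had an adjusted p of 0.0397 in hda9-1 and 0.0188 in pwr-2, and with DESeq2 0.0483 in pwr-2. The 7 root hair markers EXPA7, EXPA18, PRP3, COBL9, RHD6, RSL4 and LRX1 summed to 22, 10 and 4 counts in hda9-1 and 6, 10 and 7 in pwr-2, against 22, 49 and 6 in WT, and between 0 and 5 of them were at 0 in a library. WT replicate 3 was again low and hda9-1 replicate 1 had the 22 counts of WT replicate 1. The part of root hairs or of the roots recovered in the levels of AGP30, AGP3 and AGP22 was not tested. Of 10 other root markers 6 were tested. None was called in hda9-1 (all genes tested: 34.2%). In pwr-2 PHO1 alone was called, higher (log2 0.18, adjusted p = 0.0299; all genes tested: 31.4% in either direction). The summed level of the 10 was 189 to 194 CPM in hda9-1, 197 to 207 in pwr-2 and 178 to 194 in WT. Most of this sum came from SCR, PHO1 and SHR, at 73.6, 62.9 and 41.3 CPM in WT, so it says little of the others. In replicates 1, 2 and 3, the markers at 0 were 2, 3 and 3 in hda9-1, 1, 2 and 3 in pwr-2 and 0, 0 and 3 in WT.

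**Figure D5:**
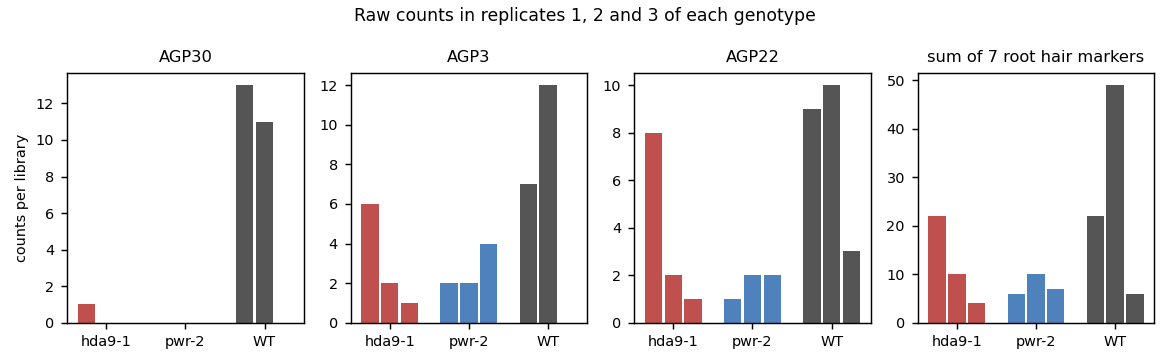
Raw counts of AGP30, AGP3, AGP22 and the sum of 7 root hair markers in replicates 1, 2 and 3 of hda9-1, pwr-2 and WT. In all 4 panels WT replicates 1 and 2 hold most of the counts of WT and WT replicate 3 few or none.

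Genes of glycosylation and anchoring, listed with prolyl hydroxylases, partners of FLA4 and the AGP APAP1, were called in both directions. Of the 34 genes of this list, 32 were tested. In hda9-1, 3 were called higher (all genes tested: 17.6%) and 6 lower (all genes tested: 16.6%), and in pwr-2, 3 higher (all genes tested: 16%) and 8 lower (all genes tested: 15.3%). None was called between the mutants. The 3 called higher were FEI1, APAP1 and AT5G62620 in each mutant. Of these, FEI1 is a receptor kinase and APAP1 an AGP, so only AT5G62620 belongs to a glycosylation family. The median log2 fold change of the list was -0.09 in hda9-1 and -0.10 in pwr-2. GALT2, which adds the first galactose to hydroxyproline, was at 17.96 ± 2.43 CPM in hda9-1, 15.8 ± 0.936 in pwr-2 and 25.05 ± 0.868 in WT (SD, n = 3 each), or on the log2 scale -0.47 in hda9-1 (adjusted p = 0.00377) and -0.67 in pwr-2 (adjusted p = 0.000621). GALT31A, a galactosyltransferase of the sugar chains, fell by 0.45 on the log2 scale in pwr-2 (SE 0.10, adjusted p = 0.00549), and its log2 fold change in hda9-1 was -0.24 (SE 0.10, adjusted p = 0.0749). AT1G67330, annotated as a methyltransferase-like DUF579 protein, fell by 0.95 in hda9-1 (SE 0.21, adjusted p = 0.0054) and 0.83 in pwr-2 (SE 0.21, adjusted p = 0.0112). AT4G32120, a galactosyltransferase family protein, fell by 0.20 in pwr-2 (SE 0.06, adjusted p = 0.0214). AT5G62620, annotated in the same family and named after its values were seen, rose by 0.25 in hda9-1 (SE 0.08, adjusted p = 0.0221) and 0.23 in pwr-2 (SE 0.08, adjusted p = 0.0342).

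PNT1, a mannosyltransferase of GPI anchor assembly, fell by 0.28 on the log2 scale in hda9-1 (SE 0.08, adjusted p = 0.0124) and 0.21 in pwr-2 (SE 0.07, adjusted p = 0.0495). APTG1, of the same pathway, fell by 0.33 in pwr-2 (SE 0.10, adjusted p = 0.0203), and its value in hda9-1 was -0.26 (SE 0.10, adjusted p = 0.0519). AT3G27325, annotated as an ester hydrolase, fell by 0.22 in hda9-1 (SE 0.05, adjusted p = 0.00572), and its value in pwr-2 was -0.08 (SE 0.05, adjusted p = 0.228). FEI1, a receptor kinase that acts with FLA4 in roots, was at 151 ± 7.18 CPM in hda9-1, 139 ± 2.64 in pwr-2 and 120 ± 5.95 in WT (SD, n = 3 each), a rise on the log2 scale of 0.33 in hda9-1 (adjusted p = 0.00117) and 0.22 in pwr-2 (adjusted p = 0.014). FEI2, its paralogue, was not called, with 0.19 in hda9-1 (SE 0.08, adjusted p = 0.0875) and 0.16 in pwr-2 (SE 0.08, adjusted p = 0.14). APAP1, an AGP linked to pectin and xylan, rose by 0.25 in hda9-1 (SE 0.06, adjusted p = 0.00913) and 0.19 in pwr-2 (SE 0.06, adjusted p = 0.0412). The counts of this list moved with single libraries. The 6 lower calls in hda9-1 became 3 without WT replicate 2 or hda9-1 replicate 2. The 8 lower calls in pwr-2 became 3 without WT replicate 1, 4 without WT replicate 2, pwr-2 replicate 1 or pwr-2 replicate 3, and 2 without pwr-2 replicate 2, and the 3 higher calls became 1 without WT replicate 2 and 0 without pwr-2 replicate 2. With the replicate block in a fit of hda9-1 and WT alone, 5 genes of the list were called higher in hda9-1.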

How the data were processed

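The deposited table holds whole-number counts per gene for 9 libraries, with no normalization. The submitters' processing notes name HISAT2 and TAIR10; the counting tool, annotation and strand setting are not given in the sources used here. Names, exon lengths and sequences came from RefSeq TAIR10.1, which placed 28932 of the 29420 genes, and 4396 genes had no count. The members and lists were chosen with earlier results of these data known.

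Differences were computed in R 4.3.3 by edgeR's quasi-likelihood test (version 4.0.16). It used TMM factors, filterByExpr (minimum count 10) and 1 model over the 9 libraries with genotype as the only term. SE is the absolute log2 fold change over the square root of F. CPM are given as mean ± SD of 3 replicates. A count of 3 was taken as the floor, which covers counting error only. The steps were also run on simulated counts, drawn independently for each library. Such counts hold no shared deviation of same-numbered libraries, and the outcome is not given here. Exons of 10 members overlap a gene on the other strand. In 4 members some exon words of 50 bases are repeated in the genome, namely AGP31 (4.91%), FLA3 (2.80%), FLA8 (0.22%) and FLA10 (0.21%).

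The rule for naming genes gave 12 members in full, by the smallest adjusted p in either mutant, the other called members by log2 fold change, SE and adjusted p, and up to 6 called glycosylation and anchor genes per mutant. Library values added for FLA8, FLA15, AGP5 and the members of few counts were picked with their values known.

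Alternatives were DESeq2 1.42.0, RLE factors, upper-quartile factors, loess offsets (limma 3.58.1), no low-count filter, a fit of only the 2 groups compared, a replicate block and leaving out each library; a replicate block in a fit of only the 2 groups was added after the data were seen. Replicates of the same number in hda9-1 and WT deviated together from their group means (r = 0.359, 0.448 and 0.456), and the labels give no source of this. The main fit has no term for it, so the adjusted p-values of that fit treat the libraries as unpaired. Only the fits with a replicate block take it into account. The corresponding r was -0.123, -0.0137 and -0.128 for pwr-2 and WT.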

Additional observations from a re-analysis of the deposited data

How the results depend on the processing

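No call of a member changed sign under any of the 17 alternatives. Of 22 calls in hda9-1 against WT 18 were kept under all of them, and of 25 in pwr-2 against WT 19 were. Members called higher were 17 to 22 in hda9-1 and 18 to 24 in pwr-2. Over all genes, 4932 to 9472 were called in hda9-1 and 3917 to 7608 in pwr-2, in either direction. The share of calls kept over all genes was not computed, so the members' calls cannot be ranked by it.

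Leaving out each library in turn gave 4932 to 7137 genes called in hda9-1, 3917 to 7581 in pwr-2 and 9 to 252 in pwr-2 against hda9-1, where all libraries gave 6897, 6326 and 85. Members called lower were then 1 to 2 in each mutant against WT, and 0 to 1 between the mutants. The glycosylation and anchor genes called were 2 to 4 higher and 3 to 7 lower in hda9-1, and 0 to 3 higher and 2 to 9 lower in pwr-2.

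Between the mutants, DESeq2 called 179 genes, loess offsets 158 and no low-count filter 179, and no filter gave 1 member called higher, FLA15. AGP7 was not called there, leaving 0 members lower, with DESeq2, loess offsets or only the 2 groups. Loess offsets left 1 member lower in each mutant against WT. Of the glycosylation and anchor genes, DESeq2 and upper-quartile factors each called 1 higher in either mutant, DESeq2 3 lower in either, upper-quartile factors 11 lower in hda9-1 and loess offsets 3 lower in pwr-2. Upper-quartile factors moved the median of all genes to -0.08 on the log2 scale in both mutants, and the share of calls that were higher to 32.9% in hda9-1 and 32.6% in pwr-2, from 51.6% and 51.1%. The cause of these differences was not tested.

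With the replicate block in the fit of 9 libraries, 6901 genes were called in hda9-1, 6251 in pwr-2 and 113 between the mutants, and 20 and 23 members were called higher; in pwr-2 AGP31 lost its call (adjusted p = 0.0518) and AGP26 gained one (0.023). With the block in 2 groups, 9472, 6103 and 55 genes were called, members called higher were 22 and 21, 5 glycosylation and anchor genes were higher in hda9-1, and 0 members were called lower between the mutants. AGP1, FLA11 and FLA12 in pwr-2 lost their calls there (adjusted p = 0.054, 0.052 and 0.0508), and AGP26 gained one (0.0475). Beside the number, the labels name no link between same-numbered libraries of pwr-2 and the others. Their r to hda9-1 was -0.221, -0.189 and -0.241. Whether same-numbered libraries had a common source was not tested.

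Calls of members under about 10 CPM rest on few counts: the SE of a log2 fold change was 0.07 at the median and 0.50 for AGP5, so small changes of these genes were not detectable.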
